A study of Homo sapiens with 6 samples.

Results

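The genes described here encode 10 carriers that bring neutral or cationic amino acids across the cell membrane. They were chosen by name: SLC38A1, SLC38A2, SLC38A5, SLC6A9, SLC7A1, SLC7A3, SLC7A5, SLC43A1, SLC1A4 and SLC1A5. All 10 were among the 11911 genes of the deposited RNA-seq table. They were measured in RS4;11, a long-established human leukemia cell line of the B-cell precursor type with a KMT2A::AFF1 fusion. The sample titles assign 3 libraries to cells supplied with asparagine and 3 to cells deprived of it, with RNA taken 16 hours after the amino acid was withdrawn. The protocol entered for all 6 samples names an asparagine-free medium with dialyzed serum, so it is not stated which medium the cells with asparagine received. In the table the columns without asparagine carry the tag aspg, those with it the tag unt, and all 6 the prefix Ctrl. Whether aspg stands for the enzyme asparaginase could not be settled, and the arm is called asparagine-depleted.

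Amino acids enter cells through membrane carriers of the solute carrier (SLC) families, many of which accept several substrates. Sodium-coupled carriers such as those of the SLC38 family concentrate small neutral amino acids, exchangers such as SLC1A5 and SLC7A5 swap one amino acid for another, and the SLC7A1 and SLC7A3 carriers admit arginine and lysine. When an amino acid runs short, uncharged tRNA activates the kinase GCN2, the transcription factor ATF4 is translated, and ATF4 with its C/EBP partners binds C/EBP-ATF response elements in genes that include several amino acid carriers.

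That element is known from several amino acid carrier genes. RefSeq windows from 250 bases before to 50 bases after each annotated gene start (build GRCh38.p14) were therefore searched for it. The motif was TGATGNAA, with N any base, on both strands. Windows were found for 9 of the 10 members, all but SLC7A3, and a gene can have several starts. The motif was in 4 of their 14 windows, of 4 different genes, and in 3.62% of all 35116 windows. Among the genes of the deposited table with a window, 2.62% held it in at least 1. The matches are shown as 30 bases each, 5′ to 3′ on the strand of the gene, with the match in capitals, and are descriptions of letters and not evidence of binding.
SLC38A1, chr12:46266502-46266531, minus strand: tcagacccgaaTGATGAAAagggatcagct
SLC7A1, chr13:29595663-29595692, minus strand: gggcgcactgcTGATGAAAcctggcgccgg
SLC1A4, chr2:64989381-64989410, plus strand: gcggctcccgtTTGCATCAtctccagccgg
SLC1A5, chr19:46784893-46784922, minus strand: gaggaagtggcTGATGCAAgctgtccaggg

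In SLC7A1 the match covered bases 8 to 15 of the transcript. In SLC38A1 it spanned the start of 1 of 2 annotated starts, from base -4 to 4, and in SLC1A4 that of 1 of 2, from base -7 to 1, read on the opposite strand. The SLC1A5 match lay from base -97 to -90 of a start inside the gene, and the windows of its other starts held none. SLC3A2, which encodes the partner chain of SLC7A5, held a match in 1 of its 3 windows, at bases 38 to 45 and read on the opposite strand.
SLC3A2, chr11:62881719-62881748, plus strand: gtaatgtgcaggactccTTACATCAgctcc

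The members with the largest difference in each direction, SLC6A9 and SLC38A5, had no match in their windows, and neither did SLC38A2, SLC7A5 or SLC43A1. Bases outside the windows were not searched, so an element elsewhere in these genes would be missed. The last 100 bases before the start are shown for the first pair, with CG dinucleotides in capitals. There were 4 in SLC6A9 and 3 in SLC38A5.
SLC6A9, chr1:44031463-44031562, minus strand: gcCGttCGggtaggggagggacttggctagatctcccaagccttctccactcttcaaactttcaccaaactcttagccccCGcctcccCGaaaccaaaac
SLC38A5, chrX:48470261-48470360, minus strand: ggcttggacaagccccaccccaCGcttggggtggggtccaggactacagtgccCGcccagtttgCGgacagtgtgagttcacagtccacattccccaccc

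Values are CPM, read counts scaled to library depth by the authors, and correspond to 29971364 to 51127073 reads per library. The members rested on 237 to 47932 reads per library. Depleted library 1 stood apart: Pearson's r of log2 values across genes was 0.934 to 0.940 with depleted libraries 2 and 3, 0.996 between those, and 0.992 to 0.996 among the libraries with asparagine. All 10 markers expected of a B-cell precursor line were in the table, with a summed level of 3824 to 4104 CPM with asparagine and 3081 to 4054 in depleted libraries. Each depleted value lay below each value with asparagine for 4 of them (CD79B, VPREB1, IGLL1 and DNTT, the last at 1.596 to 4.22 CPM in all), above for 3 (PAX5, EBF1 and MEIS1), and the arms overlapped for 3, while 30.8% of all genes lay so below and 30.2% above. VPREB1 went from 420.1 to 455 CPM with asparagine to 94.1 to 169.9 in depleted libraries, IGLL1 from 779.5 to 920.2 to 171 to 418, and PAX5 from 998 to 1016 to 1257 to 1460.4. The part of these differences in the results was not tested. Of 12 markers of other blood cells, 1 was in the table, NKG7, at 57.6 to 65.9 CPM with asparagine and 40.5 to 69.2 in depleted libraries. In RNA from bulk cells, a change in some cells and a change in each cell cannot be told apart.

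The comparison of the arms asks how the RNA of these carriers differs after asparagine is removed. Of the 10 members, 7 were higher in depleted cells and 1 was lower (limma, Benjamini-Hochberg adjusted p under 0.05). Those called higher were SLC38A1, SLC38A2, SLC6A9, SLC7A1, SLC7A3, SLC43A1 and SLC1A4, and the one called lower was SLC38A5. Over all 11892 genes tested, 25.1% were called higher and 26.2% lower, so changes in either direction were common in these libraries. The median log2 fold change was 0.98 for the members and 0.01 for all genes. The members were chosen with earlier results of these data known, so the contrast with all genes is only a description. In 8 members each depleted value lay above each value with asparagine and in 1 each lay below, against 30.2% and 30.8% of all genes. SLC7A5 and SLC1A5 did not pass the test. Without depleted library 1, 8 members were called higher and 2 lower, SLC1A5 being the second, while 40.5% and 41.3% of all genes were called. Leaving out any 1 other library gave 6 members higher and 1 lower. Over all 11892 genes, 1728 to 2067 were then called higher and 1814 to 2177 lower. With depleted library 1 as the sole depleted library, 8 were called higher and 1 lower (27.1% and 26.9% of all genes), and its spread is then assumed to be that of the other arm.

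**Figure D1:**
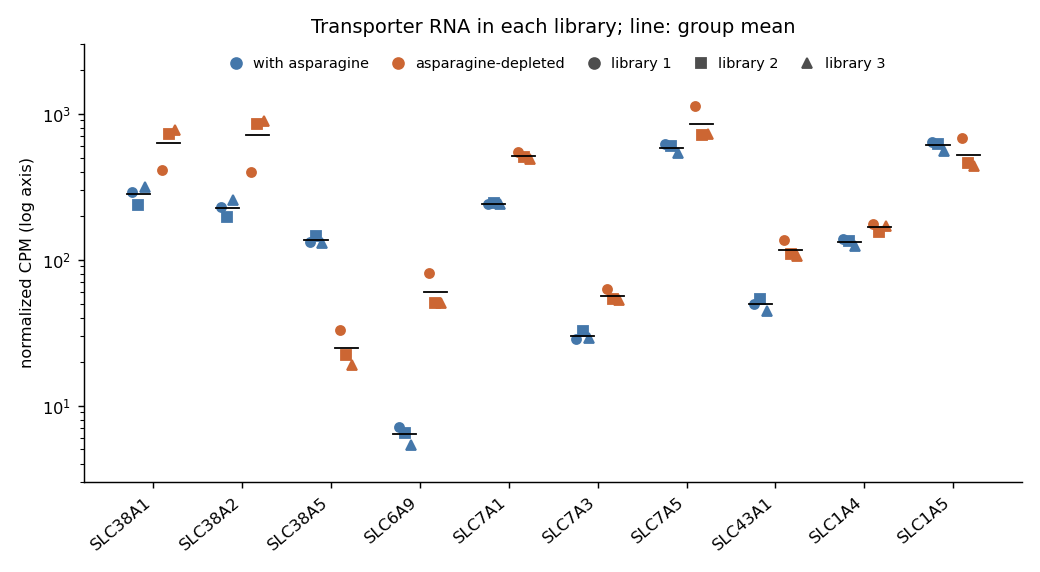
Normalized CPM (log axis) of the 10 members in each library, blue with asparagine and orange asparagine-depleted, with the symbol giving the library number and the line the group mean (n = 3 per group). SLC6A9 rises from 5.36 to 7.17 CPM to 50.2 to 80.3, SLC38A5 falls from 131 to 145 CPM to 19.1 to 32.8, and SLC1A5 is the member whose groups overlap.

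Among the SLC38 family, SLC38A1 and SLC38A2 rose and SLC38A5 fell. SLC38A1 and SLC38A2 encode SNAT1 and SNAT2, sodium-coupled carriers of small neutral amino acids, and lie close together on chromosome 12 (GRCh38, GENCODE 29: 46183063 to 46270017 and 46358189 to 46372867). SLC38A2 is known as a gene that cells induce when amino acids are withdrawn. It stood at 229, 194 and 256 CPM in libraries 1, 2 and 3 with asparagine and at 398, 845 and 889.9 CPM in depleted libraries 1, 2 and 3. Depleted libraries 2 and 3 were thus far above depleted library 1, which itself lay above each library with asparagine. The means were 227 ± 30.9 and 711 ± 272 CPM (SD, n = 3), a 3.14-fold difference and 1.57 on the log2 scale (SE 0.31, limma adjusted p = 0.00706). SLC38A1 showed the same order of libraries, at 290.1, 238 and 316 CPM with asparagine and 409.8, 725 and 767 CPM in depleted cells. Its mean went from 281 ± 39.6 to 634 ± 195 CPM, by 1.12 on the log2 scale (SE 0.26, limma adjusted p = 0.0112).

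SLC38A5 encodes SNAT5, a carrier of glutamine, asparagine, histidine and small amino acids that exchanges protons for sodium and substrate (X chromosome, 48458537 to 48470256). It fell in each depleted library. Its values were 132, 145 and 131 CPM with asparagine and 32.8, 22.1 and 19.1 CPM in depleted libraries, so the groups were far apart. The mean was 5.51-fold lower at 24.7 ± 7.24 CPM, against 136 ± 8.04, which is -2.45 on the log2 scale (SE 0.21, limma adjusted p = 0.000361).

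SLC6A9 had the largest increase of the members. It encodes GLYT1, a carrier that takes up glycine with sodium and chloride (chromosome 1, 43991500 to 44031467). With asparagine it stood at 7.17, 6.53 and 5.36 CPM, and in depleted libraries at 80.3, 50.4 and 50.2 CPM, far above. The mean rose 9.49-fold from 6.35 ± 0.918 to 60.3 ± 17.4 CPM, by 3.03 on the log2 scale (SE 0.22, limma adjusted p = 0.00023). Its 3′ end overlaps CCDC24 on the other strand, and the strand setting of the counting is not given. CCDC24 itself stood at 5.02 to 7.42 CPM with asparagine and 4.60 to 7.68 CPM in depleted libraries. Of 11891 other genes, those whose log2 values over the 6 libraries, taken relative to the mean with asparagine, lay nearest to SLC6A9 were TBC1D16, CEBPB and BIN2, at Euclidean distances of 0.351, 0.383 and 0.398. CEBPB encodes a C/EBP transcription factor and went from 19.4 ± 1.72 to 149.9 ± 52.7 CPM.

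Both cationic carriers rose. SLC7A1 encodes CAT1, the widely expressed carrier of arginine, lysine and ornithine (chromosome 13, 29509410 to 29595688). It had 239, 243 and 241 CPM with asparagine and 544, 505 and 490.5 CPM in depleted libraries. The libraries of SLC7A1 differed little within each arm, with means of 241 ± 1.93 and 513 ± 27.7 CPM. On the log2 scale SLC7A1 went up by 1.09 (SE 0.10, limma adjusted p = 0.000491). SLC7A3 encodes CAT3, a related carrier best known from the brain (X chromosome, 70925582 to 70931125). It stood at 28.7, 32.2 and 28.97 CPM with asparagine and at 62.5, 53.6 and 52.7 CPM in depleted libraries. The mean went up 1.88-fold to 56.3 ± 5.40 CPM, by 0.88 on the log2 scale (SE 0.13, limma adjusted p = 0.00232).

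Of the carriers of large neutral amino acids, SLC43A1 rose and SLC7A5 did not pass the test. SLC43A1 encodes LAT3, which lets leucine and other large neutral amino acids pass down their gradient (chromosome 11, 57484534 to 57515786). Its values were 49.8, 53.5 and 44.4 CPM with asparagine and 136, 109 and 106 CPM in depleted libraries. The mean rose 2.37-fold from 49.3 ± 4.59 to 117 ± 16.7 CPM, by 1.23 on the log2 scale (SE 0.15, limma adjusted p = 0.00116).

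SLC7A5 encodes LAT1, the light chain of the exchanger that imports leucine and other large neutral amino acids (chromosome 16, 87830023 to 87869488). It stood at 619.98, 596 and 540.02 CPM with asparagine and at 1125, 716 and 725 CPM in depleted libraries. Each depleted value was above each value with asparagine, but depleted library 1 was far above the others. The means were 585 ± 41.0 and 855 ± 234 CPM, and the log2 fold change was 0.52 (95% interval 0.06 to 0.97, limma adjusted p = 0.0593). Without depleted library 1 the difference was smaller, 0.30, and passed the test (limma adjusted p = 0.00236). With the GC correction, given in full after the single genes, it was 1.04 (SE 0.05, limma adjusted p = 4.01e-06), and over 22 alternative settings the adjusted p ran from 2.41e-08 to 0.161. Reads of SLC7A5 can be shared with its pseudogenes, of which SLC7A5P2 was in the table at 18.0 to 20.5 CPM with asparagine and 12.1 to 38.4 CPM in depleted libraries.

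SLC3A2 encodes the heavy chain that carries SLC7A5 and several other light chains to the cell surface (chromosome 11, 62856102 to 62888875). It is not a member but is needed to read SLC7A5. It had 252, 259 and 231 CPM with asparagine and 834, 526 and 500.2 CPM in depleted libraries. The mean rose 2.50-fold to 619.9 ± 186 CPM, by 1.28 on the log2 scale (SE 0.21, limma adjusted p = 0.00307).

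The SLC1 exchangers had the smallest log2 fold changes of the members. SLC1A4 encodes ASCT1, an exchanger of serine, alanine, cysteine and threonine (chromosome 2, 64988477 to 65023865). Its values were 138, 134 and 124 CPM with asparagine and 176, 154 and 170.5 CPM in depleted libraries. The mean went up 1.26-fold from 132 ± 7.22 to 167 ± 11.2 CPM, by 0.34 on the log2 scale (SE 0.12, limma adjusted p = 0.0461). The groups of SLC1A4 did not overlap, but the call was close to the threshold. It was lost in 8 of 22 alternatives, namely the threshold of 0.01, untrended moderation, the replicate block, and the fits without library 1, 2 or 3 with asparagine or without depleted library 2 or 3 (limma adjusted p = 0.0797 to 0.17 for those 5).

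SLC1A5 encodes ASCT2, the exchanger through which many tumor cells take up glutamine and which also accepts asparagine (chromosome 19, 46774883 to 46788594). It stood at 639, 621 and 555 CPM with asparagine and at 677, 456 and 438 CPM in depleted libraries. Depleted library 1 was the highest of the 6 and depleted libraries 2 and 3 were the lowest. The means of 605 ± 44.3 and 524 ± 133 CPM gave a log2 fold change of -0.23 (95% interval -0.67 to 0.20, limma adjusted p = 0.313). Leaving out depleted library 1 gave -0.43 (limma adjusted p = 0.000281), and after the GC correction 0.20 (limma adjusted p = 0.00932). The direction for SLC1A5 therefore turned with the libraries used and with the correction.

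The unevenness between depleted libraries went with the GC content of the transcripts. In the lowest of 5 GC classes of all genes, which holds SLC38A1 and SLC38A2, the median log2 difference from the mean with asparagine was 0.03, 0.81 and 0.86 in depleted libraries 1, 2 and 3. In the highest class, which holds SLC6A9 and SLC7A5, it was -0.09, -0.86 and -0.89. The GC correction removed from each library its trend with GC content. After it, SLC7A5 differed from the mean with asparagine by 1.01, 1.03 and 1.08 in depleted libraries 1, 2 and 3, in place of 0.94, 0.29 and 0.31. SLC1A5 differed by 0.21, 0.20 and 0.17, in place of 0.16, -0.40 and -0.46. For SLC38A2 the values were 0.81, 0.98 and 1.01, in place of 0.82, 1.90 and 1.98, and for SLC6A9 they were 3.54, 3.56 and 3.59, in place of 3.47, 2.81 and 2.81. The range over depleted libraries narrowed in 8 of 10 members, and in 78.9% of all genes with a GC value. It widened for SLC7A1, from 0.15 to 0.27, and for SLC1A4, from 0.19 to 0.35.

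With the correction, 9 members were called higher and 1 lower (35.1% and 34.3% of all genes), and the median over the members was 0.97. The log2 fold change was smaller for SLC38A1 (0.70) and SLC38A2 (0.94) and larger for SLC7A1 (1.36), SLC43A1 (1.67) and SLC1A4 (0.61). SLC7A3 had 1.00 and SLC38A5 had -2.03. A real change that follows GC content would be removed with the trend, and this was not tested.

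**Figure D2:**
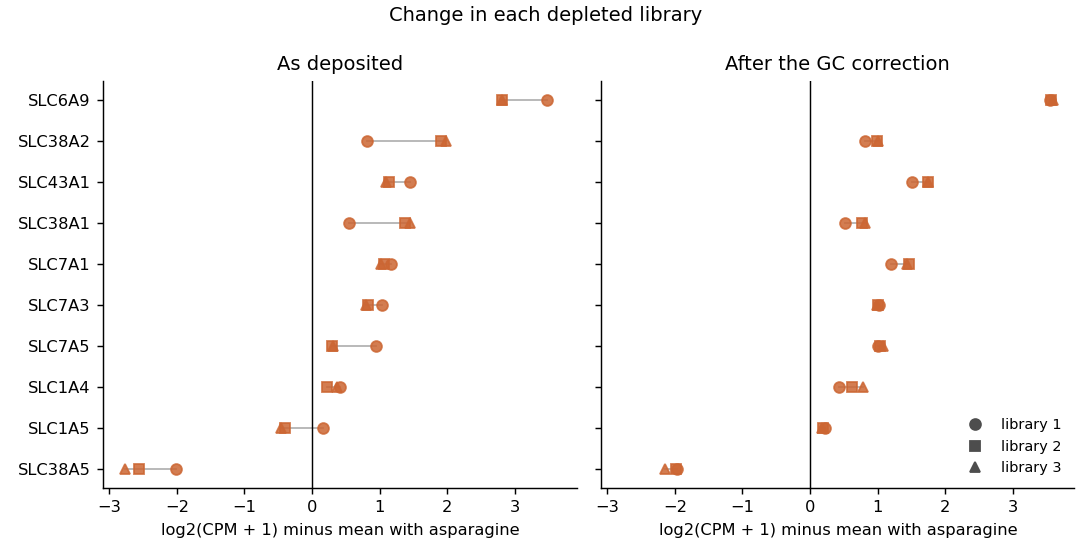
Difference of log2(CPM + 1) in each depleted library from the mean with asparagine, as deposited (left) and after the GC correction (right), with the symbol giving the library number and the grey line the range. SLC7A5 spans 0.29 to 0.94 on the left and 1.01 to 1.08 on the right, and SLC1A5 lies on both sides of 0 on the left.

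Levels of different genes were compared as CPM per kilobase of annotated exon. With asparagine SLC1A5 was the highest member at 182 ± 13.3 CPM per kb and SLC7A5 the second at 123 ± 8.64. They were followed by SLC38A2 (34.3), SLC38A5 (33.9), SLC7A1 (31.3), SLC38A1 (28.1), SLC1A4 (19.0), SLC43A1 (13.9), SLC7A3 (13.2) and SLC6A9 (1.23 CPM per kb). The ranges of SLC38A2 and SLC38A5, of SLC7A1 and SLC38A1, and of SLC43A1 and SLC7A3 overlapped, and the other neighbours in this order did not.

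In depleted cells the order of levels per kb was SLC7A5 (180.3 ± 49.2), SLC1A5 (157 ± 39.9), SLC38A2 (108 ± 41.2), SLC7A1 (66.7), SLC38A1 (63.3), SLC43A1 (33.1), SLC7A3 (24.8), SLC1A4 (24.02), SLC6A9 (11.7) and SLC38A5 (6.15 CPM per kb). Ranges overlapped between each of the first 5 and the next within those 5, and between SLC7A3 and SLC1A4, and the other neighbours were apart. SLC38A5 moved from the fourth place to the last. The summed level of the members was 459 to 498 CPM per kb with asparagine and 646 to 727 in depleted libraries. SLC1A5 made up 36.3% to 38.6% of that sum with asparagine and 27.9%, 21.2% and 20.2% in depleted libraries 1, 2 and 3. SLC38A2 made up 6.09% to 8.45% and then 8.28%, 19.8% and 20.7%, so depleted library 1 lay inside the range with asparagine. Levels and shares were taken without the GC correction. The median log2 difference in the GC class of SLC38A2 was 0.03, 0.81 and 0.86 in depleted libraries 1, 2 and 3. In the class of SLC1A5 it was -0.02, -0.48 and -0.51. The part of this trend in the order and shares was not tested.

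**Figure D3:**
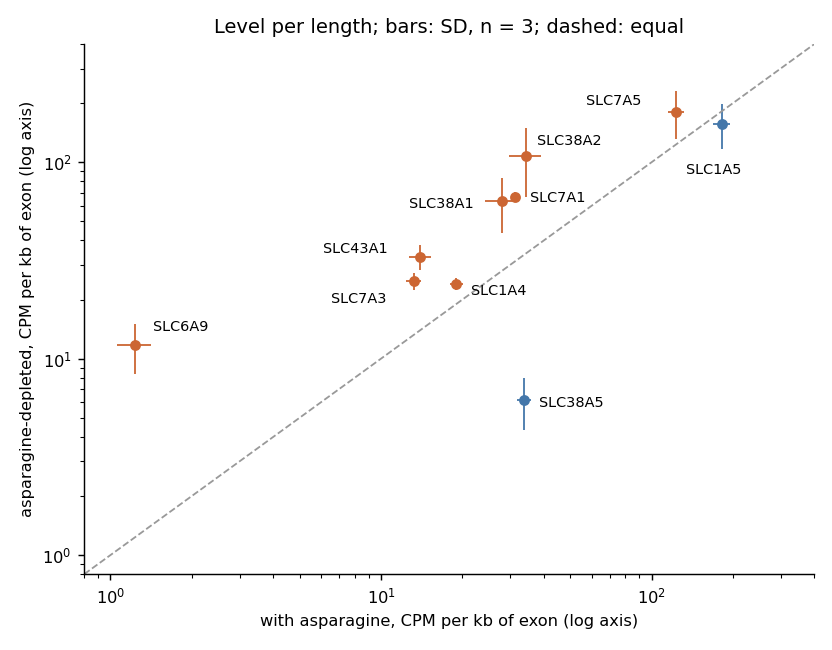
Mean CPM per kilobase of annotated exon with asparagine (x) and in depleted cells (y), both on log axes, with SD bars over n = 3 libraries; orange members have the higher mean in depleted cells and blue ones the lower. SLC38A5 lies far below the dashed line of equal levels and SLC6A9 far above it.

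The ratio of carriers inside a library does not depend on how libraries were scaled, although it still carries differences in GC content. Of 5 pairs compared, the groups were apart in all 5, with an exact two-sided permutation p = 0.1 each, the smallest that 3 against 3 libraries can give (0.1 after adjustment over the 5 pairs). No pair could therefore pass a threshold of 0.05. How often pairs of other genes stood apart was not counted. Of all single genes, 30.2% lay higher and 30.8% lower in depleted libraries without overlap. SLC7A5 to SLC3A2 showed the largest difference, with ratios of 2.46, 2.30 and 2.33 with asparagine and 1.35, 1.36 and 1.45 in depleted libraries, a log2 difference of -0.77. This pair was even across depleted libraries. SLC43A1 to SLC7A5 went from 0.0804, 0.0898 and 0.0822 to 0.121, 0.152 and 0.146, by 0.73 on the log2 scale.

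SLC1A4 to SLC1A5 stood at 0.216, 0.215 and 0.223 with asparagine and at 0.259, 0.338 and 0.389 in depleted libraries, a log2 difference of 0.57. SLC38A1 to SLC38A2 stood at 1.26, 1.23 and 1.23 with asparagine and at 1.03, 0.858 and 0.862 in depleted libraries, by -0.44. SLC7A1 to SLC7A3, the cationic pair, had the smallest difference, from 8.32, 7.55 and 8.33 to 8.71, 9.43 and 9.31, by 0.18 on the log2 scale.

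**Figure D4:**
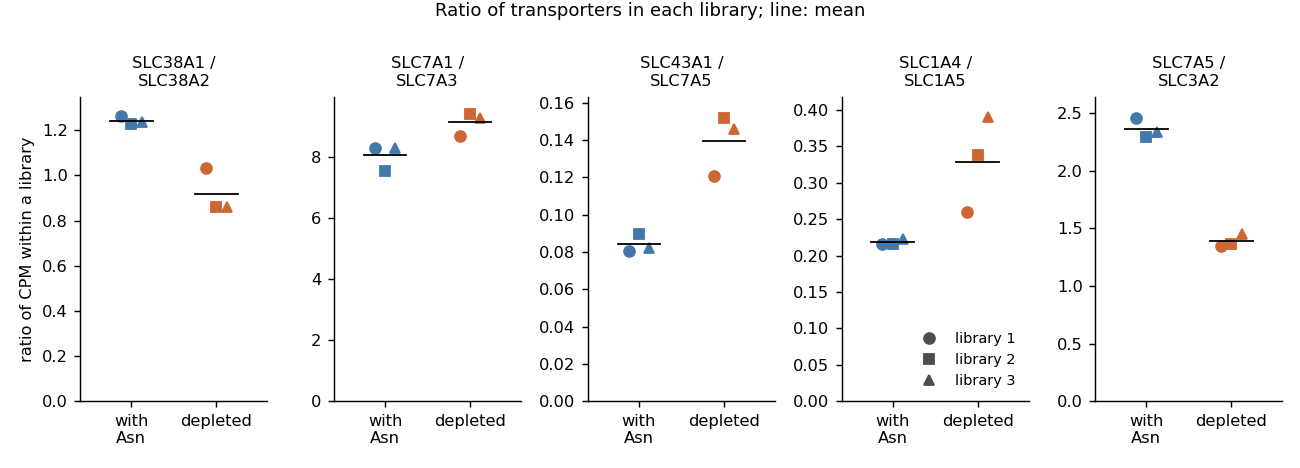
Ratio of the CPM of 2 carriers in each library, blue with asparagine and orange asparagine-depleted, with the symbol giving the library number, the line the mean and each axis starting at 0. The groups are apart in each of the 5 panels, and SLC7A5 to SLC3A2 falls from 2.30 to 2.46 to between 1.35 and 1.45. How often pairs of other genes stand apart was not counted.

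A list of 45 symbols of further amino acid carrier genes, with PQLC2 also under its newer name SLC66A1, gives the setting. Of these, 17 were in the table and tested, 5 were called higher and 3 lower (limma, against 25.1% and 26.2% of all genes), and 9 were not called. Their median log2 fold change was -0.04, and 0.18 after the GC correction. SLC7A11, the cystine-glutamate exchanger that also uses the SLC3A2 chain, rose from 9.88 ± 1.30 to 247 ± 112 CPM, by 4.39 (SE 0.38, limma adjusted p = 0.000395). The others called higher beside SLC3A2 were SLC38A6 at 0.79, SLC38A9, the arginine sensor of the lysosome, at 0.71, and SLC7A7, a light chain of a cationic and neutral exchanger, at 0.41. Those called lower were SLC6A6, the taurine carrier, at -1.72, PQLC2, which exports cationic amino acids from lysosomes, at -1.05, and MFSD12, a cysteine importer of lysosomes, at -0.78.

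SLC6A6 fell from 8.83 ± 0.361 to 2.01 ± 0.440 CPM. The counts among the further carriers moved with single libraries. Without library 1 with asparagine 2 were higher, and without library 2 or 3 with asparagine or depleted library 2 or 3 it was 3, with 2 lower each time. Without depleted library 1, 6 were higher and 6 lower, while 40.5% and 41.3% of all genes were called. After the GC correction SLC38A6 stood at 0.18 and MFSD12 at -0.12, and neither passed (limma adjusted p = 0.49 and 0.108), while SLC38A9 at 0.23, SLC7A7 at 0.58, PQLC2 at -0.46, SLC6A6 at -1.51 and SLC7A11 at 3.63 did. Of 22 alternatives, the call was lost in 9 for SLC38A9, 8 for SLC7A7 and 11 for MFSD12, and in none for SLC7A11, SLC6A6 or PQLC2. For SLC38A6 it was lost in 5, and the filter at 5 CPM in 3 libraries removed the gene. SLC38A6 was low, at 2.97 ± 0.415 CPM with asparagine and 5.92 ± 1.40 in depleted cells. Leaving out any library but depleted library 1 ended the call for SLC38A9 (limma adjusted p = 0.0778 to 0.119), SLC7A7 (0.0684 to 0.156) and MFSD12 (0.0697 to 0.142), and leaving out library 1 with asparagine ended that for SLC38A6 (0.0559).

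**Figure D5:**
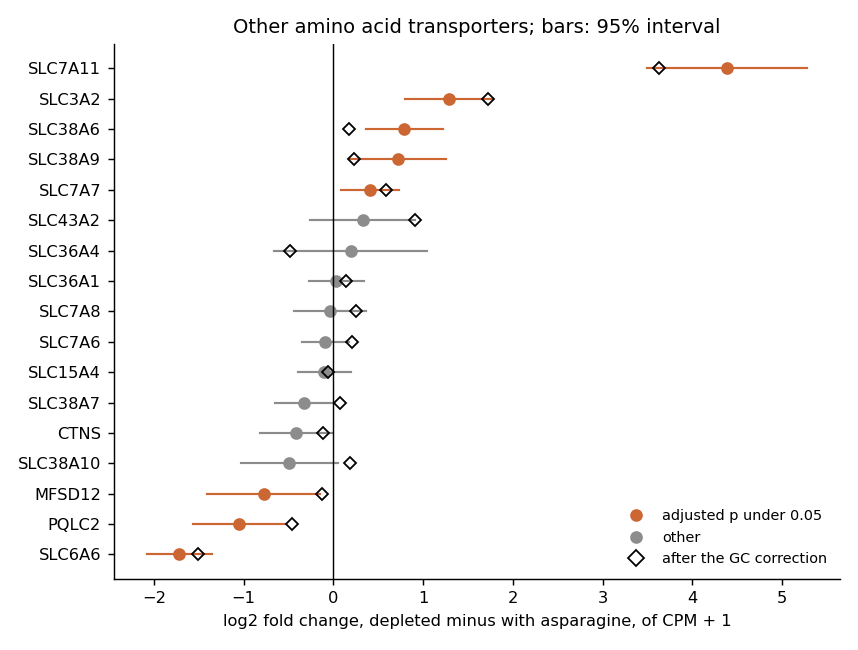
Log2 fold change (depleted minus with asparagine, of CPM + 1) of the 17 further amino acid carrier genes in the table, with 95% intervals over n = 3 libraries per group, orange where the adjusted p was under 0.05 and open diamonds after the GC correction. SLC7A11 lies at 4.39 and SLC6A6 at -1.72, and most others lie near 0.

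A pair of regulators was read beside the carriers. ATF4 RNA stood at 399.8, 419.8 and 378 CPM with asparagine and at 686, 400.2 and 383 CPM in depleted libraries, and did not pass (limma adjusted p = 0.397). Depleted library 1 alone was high, and with the GC correction ATF4 passed at 0.55 (limma adjusted p = 0.00293). ATF4 is controlled largely in translation, which RNA levels do not show. NEDD4L, a ubiquitin ligase known to mark several membrane carriers for removal, fell from 12.5 ± 1.35 to 6.84 ± 0.657 CPM, or -0.78 on the log2 scale (SE 0.14, limma adjusted p = 0.00511).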

How the data were processed

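Total RNA of RS4;11 cells was sequenced, with 3 libraries per arm. The build GRCh38 and the tools STAR, featureCounts (Subread) and FastQC come from the submitters' processing notes. Not given in the sources used here are their versions, the annotation, the strand setting, the scaling and the filter on low genes. The deposited values are a scaled signal, normalized CPM by the file name. Each was a whole multiple of 1 step per library (100% of values, tolerance 1e-06 of a read), which gives the reads behind it. A value of 3 reads is 0.0598 to 0.092 CPM. Columns were matched to samples by arm and replicate number. Nothing states separate cultures, so p-values measure only how far these libraries vary, possibly for technical reasons. Replicates differed beyond sampling noise (chi-square per degree of freedom 5.37 to 335).

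The 11892 genes that reached 1 CPM in 3 or more libraries were fitted as log2(CPM + 1) in limma 3.58.1 (R 4.3.3), with the arm as its only term and trended moderation. P-values were adjusted by Benjamini-Hochberg over all genes at 0.05. A fold change on this scale understates low genes, and "-fold" is a ratio of mean CPM. The GC correction subtracted a lowess trend (span 0.3) of each library's deviation on the median GC content of GENCODE 29 transcripts, for the 11352 tested genes with a value. Exon lengths merged all GENCODE 29 exons of a gene. The fit was tested on simulated data that gave both arms the spread of the libraries with asparagine, and no library that stood apart. Alternatives were 2 other pseudocounts, 2 other filters, 3 rescalings, untrended moderation, a stricter threshold, the replicate block, the GC correction and libraries left out. Voom weights, depleted libraries 2 and 3 left out, the GC correction without depleted library 1, and the genes with a GC value alone were chosen after seeing the data. The values were tested as deposited, on their scaled unit, and the recovered reads entered 1 alternative, as voom weights.

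The members and lists were chosen with earlier results of these data known. Named genes were the members, SLC3A2, ATF4, NEDD4L, up to 6 further carriers called higher and 4 called lower with at least 5 CPM in the higher arm, and the 3 genes nearest to the member with the largest increase. CCDC24, SLC7A5P2 and NKG7 were named because they overlap, copy or mark.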

Additional observations from a re-analysis of the deposited data

How the results depend on the processing

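Of 220 values of the members' log2 fold changes (22 alternatives for each of 10 members), 198 kept their direction and side of the threshold. SLC1A5 reversed to 0.0036 under quantile normalization, to 0.20 with the GC correction, to 0.16 with depleted libraries 2 and 3 left out, and to 0.19 with the GC correction and depleted library 1 left out. Outside the members, ATF4 ran from -0.027 (without depleted library 1) to 0.39 (without depleted library 3) with 1 library left out, and up to 0.78 over all alternatives (depleted libraries 2 and 3 left out), and SLC38A6 was -0.0195 with the GC correction and depleted library 1 left out. The cause was not tested.

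At a threshold of 0.01, 1612 genes were called higher and 1703 lower, and 5 members and 2 further carriers were higher. Untrended moderation gave 6 members higher and 2986 genes higher in all. With 1 library left out, the counts ran from 1728 to 4812 higher and 1814 to 4913 lower over all genes. They ran from 6 to 8 higher and 1 to 2 lower among the members, and from 2 to 6 higher and 2 to 6 lower among the further carriers. With the GC correction and depleted library 1 left out, 4488 genes and 8 further carriers were higher. Over all genes, the counts moved by more than 1.5 times without library 1 with asparagine (1756 and 1845), library 2 with asparagine (1728 and 1814), depleted library 1 (4812 and 4913) and depleted library 2 (1902 and 1975). Quantile normalization gave 3 further carriers higher. The stricter motif TGATGCAA was in 2 members.

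The deviations of same-numbered libraries correlated at 0.08, -0.65 and 0.69, and those of differently numbered libraries at -0.74 to 0.71. These values do not settle whether replicate numbers pair the libraries. With the replicate number as a block, 2824 genes were higher and 2989 lower, 7 members were higher and 1 lower, SLC7A5 passed (limma adjusted p = 0.0431), SLC1A4 did not (adjusted p = 0.102), and with the GC correction added SLC1A5 was 0.20.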

Other observations

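After the GC correction, 6 of the 17 further carriers were called higher and 3 lower, against 35.1% and 34.3% of all genes. Among the further carriers that were not called before it, 3 passed the test after the GC correction, and they are named here because of those values. SLC43A2, which encodes LAT4, a relative of the SLC43A1 carrier, stood at 8.49 ± 0.633 CPM with asparagine and 11.4 ± 4.48 in depleted cells (n = 3 each), a log2 fold change of 0.33 (limma adjusted p = 0.293). Its depleted libraries gave 16.5, 8.77 and 8.82 CPM. After the GC correction it was 0.90 (limma adjusted p = 0.000104), with 0.97, 0.85 and 0.90 in depleted libraries 1, 2 and 3. SLC36A4, a carrier of proline and tryptophan, stood at 24.0 ± 4.59 and 29.4 ± 12.7 CPM, with a log2 fold change of 0.19 (limma adjusted p = 0.672) that became -0.48 after the correction (limma adjusted p = 0.00252). SLC38A10, a less studied SLC38 family member, stood at 178 ± 13.3 and 130.4 ± 44.4 CPM, with a log2 fold change of -0.49 (limma adjusted p = 0.112) that became 0.19 after the correction (limma adjusted p = 0.0141).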
